A study of Mus musculus with 768 samples.

Results

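The wells described here held chromaffin-type RNA together with reads of Sox10, a glial transcription factor. They were chosen from 768 wells of single neural crest-derived cells of the mouse sympatho-adrenal anlage, the embryonic tissue that gives rise to the adrenal medulla and the sympathetic ganglia beside it. Of the 751 wells with at least 50000 reads, those with at least 200 CPM of Th, at least 500 CPM of Chgb and at least 10 CPM of Sox10 were kept. That left 70 wells, 42 from embryonic day E12.5 and 28 from E13.5, called Sox10-positive chromaffin wells below. The wells with the same Th and Chgb but under 10 CPM of Sox10, 64 at E12.5 and 88 at E13.5, are called Sox10-low chromaffin wells. CPM gives the reads of a gene per 1000000 reads counted to genes in that well. It is not divided by gene length, so levels are compared between groups for 1 gene and not between genes.

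All embryos were of the genotype Wnt1-Cre/R26Tomato and were untreated. The Wnt1-driven Cre turns on the red Tomato reporter in the neural crest and in all cells that descend from it, so the sort kept crest derivatives of any fate and not glia alone. Tomato+ cells were sorted singly into a 384-well plate, 1 plate at each age, and sequenced by Smart-seq2, a full-length method without molecular identifiers. The labels name no embryo or litter, so each age was treated as 1 sample, no test between groups was possible, and age cannot be told apart from litter or plate. The intervals given below hold the counting error alone and are too narrow as biological errors.

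Schwann cell precursors are glial cells that travel along nerves and express Sox10, an HMG-box factor needed for the peripheral glial lineage, with Erbb3 and Foxd3. In the adrenal anlage such precursors leave the nerve, pass through a short-lived bridge state marked by Htr3a and Dll3, and become chromaffin cells. Chromaffin cells make catecholamines with Th, Ddc and Dbh, load them into granules with the transporters Slc18a1 and Slc18a2, and pack them with the granins Chga and Chgb. To show the level of a glial cell, 62 wells at E12.5 and 86 at E13.5 outside the Th and Chgb limits with at least 200 CPM of Sox10 and under 10 CPM of Htr3a served as glial reference wells. Another 99 and 36 wells outside those limits with at least 50 CPM of Htr3a served as bridge reference wells.

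Depth was alike in the groups. The Sox10-positive wells held 66289 to 364291 reads (E12.5) and 119914 to 338977 (E13.5), and the Sox10-low wells 70104 to 390317 and 68987 to 338854. The median Sox10-positive well had 7356.5 genes with a read at E12.5 and 6722 at E13.5, against 7305.5 and 6630.5 in the Sox10-low wells. The Sox10-positive wells made up 39.6% of the wells over the Th and Chgb limits at E12.5 (42 beside 64, 95% Clopper-Pearson interval 30.3 to 49.6%) and 24.1% at E13.5 (28 beside 88, 16.7 to 32.96%). Split by Chgb at E13.5, their share was 50% of 6 wells from 500 to 2000 CPM, 37.5% of 16 wells from 2000 to 8000 CPM and 20.2% of 94 wells above, with overlapping intervals. The lower E13.5 ranges include wells I17 (1005 CPM of Chgb) and A24 (2736 CPM), described below. At E12.5 the same shares were 43.5%, 38.3% and 38.9%, so no order with Chgb was seen there. Chgb and Sox10 both chose the wells, so the shares at both ages are a description.

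Sox10 itself chose the wells, and its level is given as a description. At E12.5 it ran from 13.9 CPM in the lowest well through a median of 57.02 to 224.99 in the highest, resting on 4 reads in the lowest and 59 in the highest well. At E13.5 the lowest, median and highest wells had 12.6, 66.3 and 975 CPM. Of the Sox10-positive wells, 30 of 42 and 22 of 28 had 10 Sox10 reads or more, while 1 and 2 wells had 1 or 2 reads. At this depth the 10 CPM limit itself keeps out most wells with so few reads. Reads without molecular identifiers are also not separate molecules. The Sox10-low wells had no read in 55 of 64 and 76 of 88 wells, and the others had 1 or 2. Few wells lay near the limit. Just inside it stood wells of 13.9 and 15.1 CPM at E12.5 and 12.6 and 16.7 CPM at E13.5, and just outside wells of 8.94 and 5.69 CPM. Sox10 was low beside the glial reference wells, which were themselves chosen by at least 200 CPM of Sox10. Summed over wells it was 84.03 CPM at E12.5 and 117.04 at the later age. These were 10.8% and 9.98% of the 778.3 and 1172 CPM of the glial reference wells. Without wells I17 and A24, described below, it was 74.8 CPM at E13.5, or 6.38% of the glial reference level.

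The share of wells with Sox10 was also counted in other kinds of well. At least 10 CPM of Sox10 was present in 59 of 99 bridge reference wells at E12.5 (59.6%, 49.3 to 69.3%) and in 12 of 36 at E13.5 (33.3%, 18.6 to 50.97%). It was also counted among wells with at least 200 CPM each of Cartpt and Prph, a peptide and an intermediate filament of sympathetic neuroblasts. The share was 0 of 14 at E12.5, where a count of 0 allows a share of up to 21.4%. At E13.5 it was 4 of 42 (9.52%, 2.66 to 22.6%), with 1 Sox10-low chromaffin well among the 42. Whether neuroblasts lack Sox10 was not tested. The Cartpt and Prph wells had medians of 304638 and 255156 reads, against 269114 and 270290 in the Sox10-positive chromaffin wells. The chromaffin wells were split by Sox10 itself, so these shares are given as a description.

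Chromaffin genes other than Th and Chgb were read at levels that overlapped those of the Sox10-low wells. Of 8 chromaffin markers, 7 had a read in some Sox10-positive well of each age. Pnmt, which turns noradrenaline into adrenaline, had no read in any Sox10-positive well. All 8 had a read in some glial reference well of each age, so this count does not mark chromaffin cells, and the levels per well are given instead. Chga was 119.4, 2015 and 7192 CPM in the lowest, median and highest Sox10-positive well at E12.5 and 9.998, 1607 and 6518 in the Sox10-low wells. At E13.5 it was 155.5, 4354 and 9139 against 404, 4281 and 13342 CPM. The groups overlapped over nearly their whole range. Dbh, which makes noradrenaline from dopamine, had medians of 3458 against 4119 CPM at E12.5 and 4424 against 5820 at E13.5. Epas1, a hypoxia-inducible factor subunit prominent in chromaffin cells, had medians of 1253 against 1421 and 1632 against 1691 CPM, while the median glial reference well had 0. A few members were poor in these genes: well F15 of the E13.5 plate had 5.80 CPM of Dbh, and well B17 of the E12.5 plate 115.5 CPM.

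**Figure D1:**
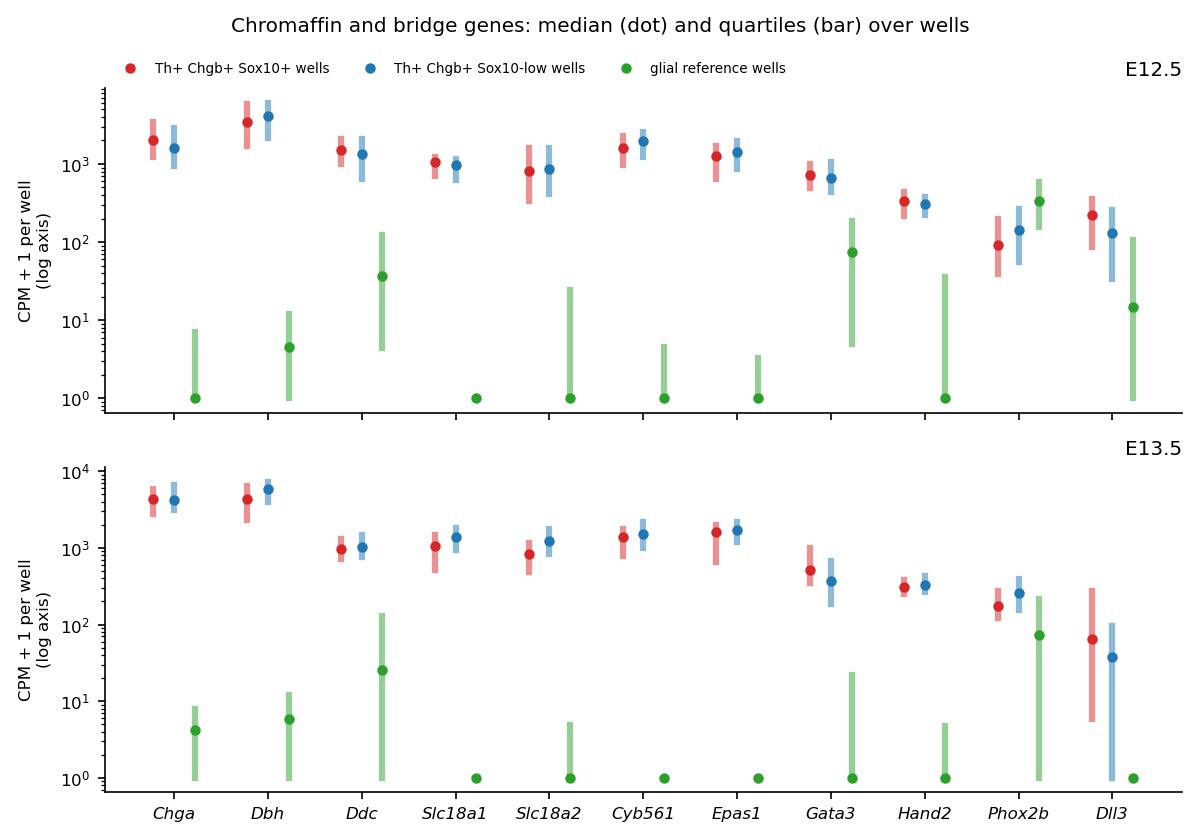
Level per well (CPM + 1, log axis) of 10 chromaffin and sympathoadrenal genes and the bridge gene Dll3 in Sox10-positive (red), Sox10-low (blue) and glial reference wells (green) at E12.5 (top) and E13.5 (bottom), with dots for medians and bars for quartiles over wells. Red and blue bars overlap for each gene, with median Chga at 2015 and 1607 CPM at E12.5, while the green medians of Slc18a1, Cyb561 and Epas1 are at 0 CPM.

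Whether other glial genes remained beside Sox10 was read from a list of 30 Schwann lineage genes. At E12.5 the median Sox10-positive well had 5 of the 30 genes with 2 or more reads (1 to 11), the median Sox10-low well also 5 (2 to 10), and the median glial reference well 20.5. Summed per well, the 30 genes came to 95.8, 501 and 2455 CPM in the lowest, median and highest Sox10-positive well and to 95.1, 433 and 2261 in the Sox10-low wells, against a glial median of 9569. With each well thinned to 100000 reads, which left 40, 63 and 62 wells, the median numbers of genes were 4.5, 5 and 20. The Schwann lineage sums of Sox10-positive and Sox10-low wells thus overlapped over nearly their whole range.

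At E13.5, 26 of the 28 wells had Schwann lineage sums that overlapped those of the Sox10-low wells, and 2 wells had far higher sums. Across those 26 wells the Schwann lineage sum was 30.6, 296.9 and 1778 CPM at its lowest, median and highest, against 21.4, 464 and 1483 in the Sox10-low wells and a glial median of 22331. The median number of genes was 5 in both groups and 26 in glial reference wells. After thinning, the medians were 3.5 and 4 genes against 25. The other 2 wells, I17 and A24, were singled out after their values were seen, by having at least 20 of the 30 genes. The same genes are compared here and below without these wells, so the likeness of the other 26 was partly fixed by that choice.

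**Figure D2:**
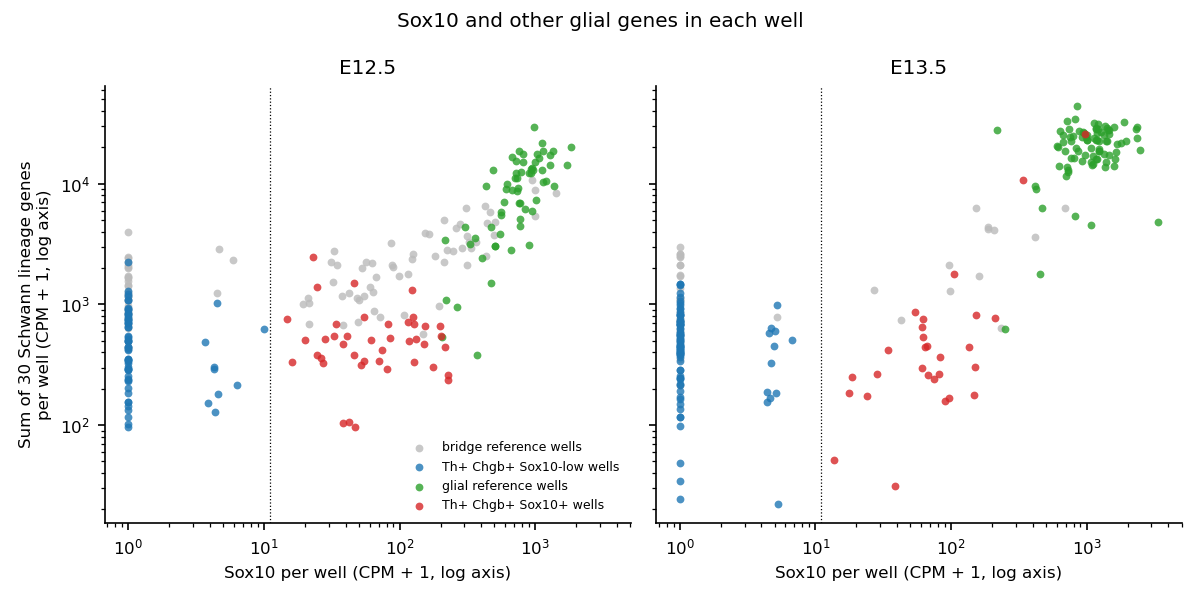
Sox10 in each well (x, CPM + 1, log axis) against the sum of 30 Schwann lineage genes (y, CPM + 1, log axis) for Sox10-positive (red), Sox10-low (blue), glial reference (green) and bridge reference wells (grey) at E12.5 and E13.5, with the 10 CPM limit dotted. Red points lie at the height of the blue ones (medians 501 and 433 CPM at E12.5), except for wells A24 (10778 CPM) and I17 (25937 CPM) at E13.5.

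Well I17 had the highest Sox10 of all members, 975 CPM, and 26 of the 30 genes. In it Ednrb, an endothelin receptor of crest and glia, was 7953 CPM and Fabp7, a fatty acid-binding protein of immature glia, 3463, against glial medians of 5268 and 914. Its chromaffin genes were low beside the Sox10-low medians: Chgb was 1005 CPM against 15146, Chga 155.5 against 4281 and Dbh 478 against 5820. Slc18a1, Slc18a2 and Epas1 had no read. Chgb, Chga and Dbh still lay above their glial medians of 7.57, 3.25 and 4.76 CPM. Single glial reference wells reached 1990 CPM of Chga and 1717 of Dbh. The name chromaffin rests in I17 mainly on Th (410 CPM) and Chgb over their limits. Its glial genes and the genes without a read go against that name.

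Well A24 held both sets of genes. Sox10 was 335.7 CPM, Ednrb 3843, Fabp7 1632 and Foxd3, a crest and glial forkhead factor, 81.03 CPM, with 23 of the 30 genes present. At the same time Gata3, a sympathoadrenal zinc finger factor, was 1161 CPM, Dbh 2153, Chgb 2736 and Chga 868. Its Chga was 20.3% of the Sox10-low median and its Ednrb 72.96% of the glial median. It had 7810 genes with a read, over the 7598.5 that mark the top 5% of wells of its plate, and I17 had 6345. All values that follow for E13.5 are given with and without these wells where a 2-fold call or a direction differs.

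Single glial markers were also read at a small part of their glial level, apart from I17 and A24. Fabp7 had no read in 31 of 42 Sox10-positive wells at E12.5 and was 5.24 CPM summed over the group (3.95 to 6.82), against 8.36 (7.07 to 9.82) in Sox10-low and 399 in glial reference wells. At E13.5 it was 205.8 CPM with all wells and 22.1 without I17 and A24, against 7.41 in Sox10-low wells and 1206 in glia. Erbb3, the neuregulin receptor of Schwann cell precursors, was 1.71 against 0.45 CPM at E12.5, and 242.3 in glial reference wells. Gjc3, a glial connexin, had no read in either chromaffin group at E12.5. Foxd3 was 0.95 against 0.11 CPM at E12.5 (39.9 in glia) and 2.54 against 0.86 at E13.5 without the 2 wells (88.1 in glia). S100b, a calcium-binding protein of Schwann cells, was 3.33 against 0.39 CPM at E12.5, with 2 or more reads in 3 of 42 and 1 of 64 wells. Its glial level was 29.1 CPM, so the Sox10-positive wells stood at 11.5% of it. These last values lie above those of the Sox10-low wells but rest on few wells.

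Presence was also counted per well for 8 glial markers, among them Fabp7, Foxd3, Erbb3 and Ednrb. At E12.5, 22 of the 42 Sox10-positive wells had none of the 8 at 2 or more reads, 13 had 1, 6 had 2 and 1 had 3. Of the 64 Sox10-low wells, 22 had none, 35 had 1 and 7 had 2. At E13.5 the Sox10-positive wells had none in 7 wells, 1 in 10, 2 in 7, 3 in 1 and 4 in 1, and I17 and A24 had 8 and 7. The E13.5 Sox10-low wells had none in 29, 1 in 45, 2 in 9 and 3 in 5. Wells with 2 or more markers were thus 7 of 42 against 7 of 64 at E12.5, and 9 of 26 against 14 of 88 at E13.5 when I17 and A24 are not counted.

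The levels of the Schwann lineage genes were also given as a share of their glial level. At E12.5 the 22 genes with at least 50 CPM in glial reference wells stood at a median of 1.71% of glia in Sox10-positive and 2.25% in Sox10-low wells. The difference between the groups had a median of 0.170% of the glial level over these genes and was at or below 0 for 11 of them. Ednrb was 12.6 CPM in Sox10-positive, 15.5 in Sox10-low and 2232 in glial reference wells. The differences were widest for Gfra3, the artemin receptor, and Gpm6b, a membrane glycoprotein. Gfra3 was 106.99 CPM in Sox10-positive, 59.4 in Sox10-low and 111.4 in glial reference wells, so it marked glia little at this age. Sox10 chose the wells, so its own share of glia is no measure to hold these genes against, and whether stray glial reads have a part in the Sox10 reads was not tested.

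At E13.5 without I17 and A24, the 27 genes of that kind stood at medians of 0.720% and 0.682% of glia. The difference had a median of -0.110% of the glial level and was at or below 0 for 19 genes. Ednrb was 26.6 CPM in Sox10-positive and 19.1 in Sox10-low wells. With all 28 wells the Sox10-positive median was 7.27%, the median difference 3.73%, and 2 genes were at or below 0.

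**Figure D3:**
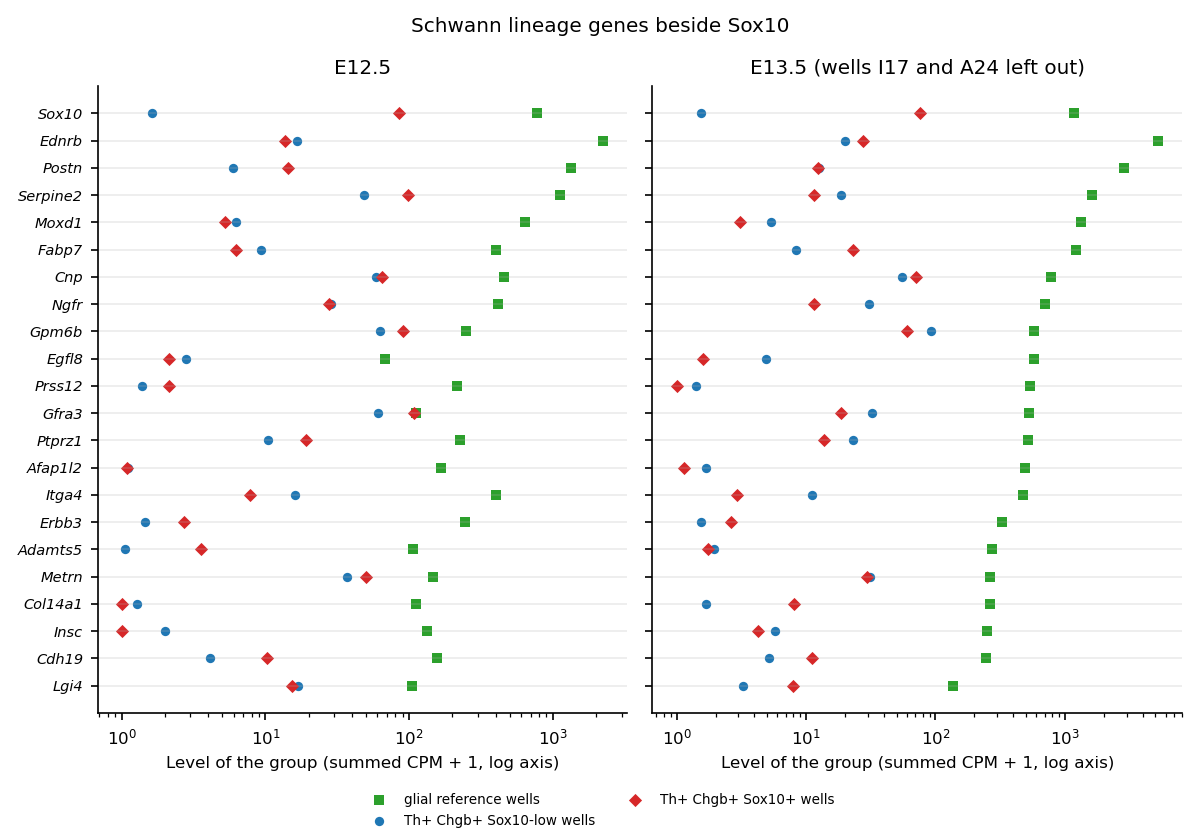
Summed level (CPM + 1, log axis) of Sox10 and Schwann lineage genes with at least 50 CPM in glial reference wells at both ages, in glial reference (green squares), Sox10-low (blue circles) and Sox10-positive wells (red diamonds), with I17 and A24 left out at E13.5. Most diamonds lie nearer to the blue circles than to the green squares, as for Ednrb at E12.5 (12.6 against 15.5 CPM), while Gfra3 lies at the green square at E12.5; Sox10 chose the wells.

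Bridge reference wells in the same range of Sox10 held more glial RNA. At E12.5, 36 bridge reference wells and 38 Sox10-positive chromaffin wells had Sox10 between 10 and 200 CPM, with summed levels of 73.2 and 70.4 CPM. In these, Fabp7 was 64.6 CPM in bridge and 3.89 in chromaffin wells, Ednrb 74.7 and 12.497, and Serpine2, a secreted protease inhibitor, 778 and 104.9. The median well had 8 of the 30 Schwann lineage genes in the bridge group and 5 in the chromaffin group. At E13.5 the 8 bridge wells in that range had more Sox10 than the 25 chromaffin wells (114.05 against 71.6 CPM summed), so the groups were not matched there. They had 112.5 CPM of Fabp7 and 239.3 of Ednrb, and the chromaffin wells 19.3 and 23.4. Among members, the median Schwann lineage sum at E12.5 was 506 CPM in 3 wells of 10 to 20 CPM Sox10, 467 in 15 wells of 20 to 50, 509 in 20 wells of 50 to 200 and 350.7 in 4 wells above. At E13.5 without I17 and A24 it was 183.5 CPM in 3 wells, 219.7 in 4, 404 in 18 and 769 in 1, over the same ranges. The sums thus stood in the order of Sox10 at E13.5 and not at E12.5, but all of these bins other than that of 20 wells are thin.

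Across all genes, a difference between Sox10-positive and Sox10-low wells was counted where the summed levels differed at least 2-fold after adding 1 CPM and 1 group had at least 5 CPM. At E12.5, 3.58% of 11328 genes were higher in this sense and 3.2% lower. At E13.5, 6.44% of 11519 were higher and 6.22% lower, and without I17 and A24, 4.74% higher and 7.01% lower. The median log2 fold of all genes was 0.01 at both ages and -0.01 without the 2 wells. Each list below is to be read against these shares and medians.

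Of the Schwann lineage genes, 16 of 30 were measured at E12.5 with a median log2 fold of 0.05. Cdh19, a glial cadherin, Serpine2 and Postn, the matrix protein periostin, were higher, and Itga4 and Pmp22 lower, with Itga4 at -0.85 without well N16. At E13.5, 19 of 26 measured genes were higher and none lower, with a median of 2.21. Without I17 and A24 this became 5 higher (Fabp7, Cdh19, Lgi4, Col14a1 and Fxyd1) and 2 lower (Itga4 and Ngfr) of 17, with a median of -0.07. Col14a1 there was -0.55 without well H23. Of the glial and crest transcription factors at E12.5, none of 12 was higher and Snai2 was lower (-0.83 without well E11). At E13.5, 6 of 15 were higher (Sox8, Foxd3, Tfap2a, Zeb2, Id3 and Hes1), and without the 2 wells none of 11. Id4, an inhibitor of basic helix-loop-helix factors, was lower there with all wells (-1.84) and without the 2 (-1.77). Most of the higher calls among glial genes at E13.5 were thus lost without 2 of 28 wells.

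Cdh19 was at least 2-fold higher at both ages, also without I17 and A24, but at E12.5 the sign turned with plate position: the log2 fold was 4.14 in rows I to P and -1.92 in rows A to H. Reads of Cdh19 were present in 7 of 42 Sox10-positive wells at E12.5 and 6 of 64 Sox10-low wells, at 9.24 (7.49 to 11.3) and 3.09 CPM, and in 5 of 28 and 5 of 88 wells at E13.5, at 24.3 and 4.18 CPM. The log2 folds were 1.33 and 2.29, and 1.11 at E13.5 without the 2 wells. Without the well that held most of its reads at E12.5, L15, the fold was 0.73. Postn and Serpine2 passed at both ages with all wells (1.27 and 2.60, and 1.02 and 2.46), but at E13.5 they were -0.04 and -0.71 without I17 and A24, and at E12.5 0.59 and 0.27 without well A2. At E12.5 Postn was -0.32 in wells with no glial reference well beside them, and Serpine2 -0.80 in rows I to P.

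**Figure D4:**
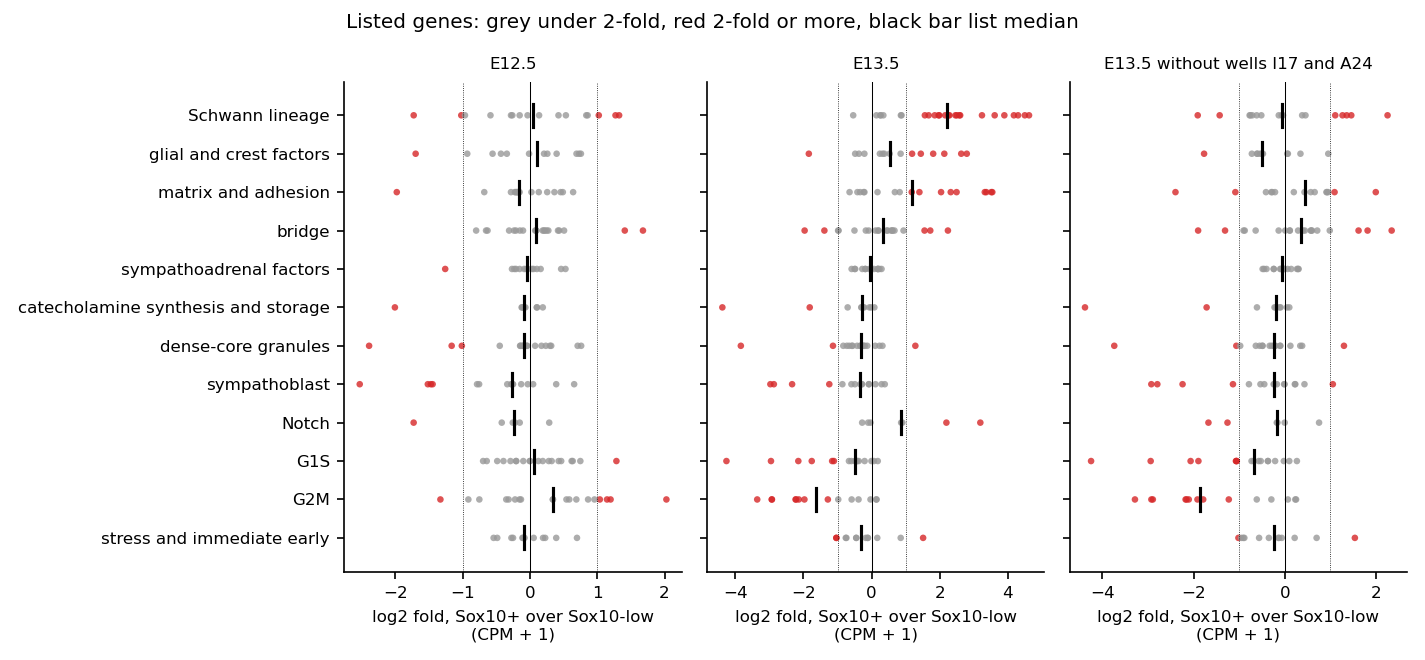
Log2 fold of summed CPM + 1 (x), Sox10-positive over Sox10-low wells, for each measured gene (dots, red at 2-fold or more) of 12 lists (y), with the list median as a black bar, at E12.5, at E13.5 and at E13.5 without wells I17 and A24. The Schwann lineage median moves from 2.21 to -0.07 when those wells are left out, and the sympathoadrenal median stays near 0.

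Genes of the bridge state were on average at the level of the Sox10-low wells, with a median log2 fold of 0.10 over 21 measured genes at E12.5 and 0.32 over 20 at E13.5. Dll3, a Notch ligand, had medians of 220 CPM (0 to 943) in Sox10-positive and 128.9 (0 to 834) in Sox10-low wells at E12.5, and 63.97 against 36.7 at E13.5. It was higher in the Sox10-positive wells at both ages, by less than 2-fold in the sums. Htr3a, a serotonin-gated channel and bridge marker, was at 50 CPM or more in 8 of 42 against 9 of 64 wells at E12.5 and in 1 of 28 against 1 of 88 at E13.5. At E12.5 Dll1, another Notch ligand (log2 fold 1.41), and Sct, which encodes secretin (1.68), were higher. Dll1 and Fam110a were lower at E13.5 (-1.97 and -1.39), where Htr3a, Stra6 and Mfap4 were higher. Htr3a there came to 97.96% from well K15 and was -1.05 without it, and Stra6 was 0.92 without well I7. Mfap4, a matrix glycoprotein, was 203.4 against 68.7 CPM at E13.5, with a read in 21 of 28 and 34 of 88 wells.

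The sympathoadrenal transcription factors were level: of 14 measured at each age, Sox4 at E12.5 was lower (-0.96 without well C17) and the rest differed less than 2-fold, with a median log2 fold of -0.04 at both ages. The catecholamine genes had medians of -0.09 over 9 genes and -0.27 over 10. Slc6a2, the noradrenaline transporter that takes the amine back up, was lower at both ages. It was read in 3 of 42 and 7 of 64 wells at E12.5 (4.95 against 22.9 CPM, log2 fold -2.00), where leaving out the Sox10-low well C20 gave -0.73 and wells with no glial reference well beside them gave 0.59. At E13.5 it was read in 1 of 28 Sox10-positive and 31 of 88 Sox10-low wells (17.9 against 65.5 CPM, -1.82). Pnmt at E13.5 was 0 against 19.8 CPM, from only 2 Sox10-low wells. The dense-core granule genes had medians of -0.09 and -0.32 over 19 genes at each age. Pcsk1, Vgf and Penk were lower at E12.5, and at E13.5 Penk was higher and Scg2 and Pcsk2 lower. Vgf was -0.50 without well N5 and Pcsk2 -0.59 without well K19.

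Penk, the enkephalin precursor, thus lay on opposite sides at the 2 ages: 205.4 against 415 CPM at E12.5 (log2 fold -1.01) and 567 against 232.2 at E13.5 (1.28), with folds of -0.80 without the Sox10-low well F3 and 0.78 without the Sox10-positive well N19. Scg2, the granin secretogranin II, was 10.95 against 170 CPM at E13.5, with a read in 6 of 28 and 42 of 88 wells, and 38.01 against 30.8 at E12.5.

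Some neuronal genes were lower. Of the sympathoblast list, 4 of 16 measured genes were lower at E12.5 (Cartpt, Slc18a3, Stmn4 and Gal) and 4 of 15 at E13.5 (Cartpt, Prph, Stmn4 and Gal), none was higher, and the medians were -0.27 and -0.33. Without I17 and A24 the E13.5 median was -0.24 over 16 genes, the same 4 were lower, and Alk, a receptor tyrosine kinase, was higher (1.05) with a read in 3 Sox10-positive wells. Stmn4, a neuronal stathmin, was 6.002 against 19.03 CPM at E12.5 (-1.52) and 0.69 against 12.3 at E13.5 (-2.97), with a read in 6 of 42 against 13 of 64 and 1 of 28 against 17 of 88 wells. Gal, the peptide galanin, was 13.2 against 37.8 CPM (-1.44) and 45.5 against 108.9 (-1.24), and fell short of 2-fold without well G16 at E12.5 (-0.74) or M4 at E13.5 (-0.98). Cartpt was 5.72 against 17.6 CPM (-1.47) and 8.18 against 66.1 (-2.87), and at E12.5 turned to 0.23 without the Sox10-low well L4. By plate position at E12.5, Cartpt was 1.06 and Stmn4 0.34 in rows A to H, and Gal 0.48 in rows I to P. Prph was 59.4 against 37.3 CPM at E12.5 (0.66) and 5.69 against 32.7 at E13.5 (-2.33). No Sox10-positive well at either age had both Cartpt and Prph at 200 CPM.

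At both ages together, 55 of 10874 measured genes (0.506%) were at least 2-fold higher and 56 (0.515%) lower in the Sox10-positive wells. Without I17 and A24 the shares were 0.351% and 0.554% of 10835. The higher genes are 13.6% of those at E12.5 and 7.41% of those at E13.5. Outside the lists Apoe, an apolipoprotein that peripheral glia also make, ranked just after S100a16 by the smaller of its folds with all wells, and first without I17 and A24. It was read in 27 of 42 against 32 of 64 wells at E12.5, at 86.3 (80.8 to 92.1) against 36.5 CPM, and in 14 of 28 against 23 of 88 at E13.5, at 78.8 against 13.004 CPM. The log2 folds were 1.22 and 2.51, 1.89 at E13.5 without I17 and A24, and 1.01 and 1.98 without the single well that held most reads. The glial reference wells had 57.8 and 178.6 CPM, so at E12.5 its level in Sox10-positive wells was above the glial one.

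Of the other named genes, S100a16, a calcium-binding protein, had folds of 1.26 and 1.44, and Lima1, an actin-binding protein, 1.09 and 1.62. Without I17 and A24 these were 0.44 and 0.56 at E13.5, and Plcd1 (1.40 and 1.12) and Fam213b (1.49 and 1.11) also fell short there, at 0.90 and 0.96. Gulp1, an engulfment adaptor (1.47 and 1.18), and Cdc42ep2, an effector of the GTPase Cdc42 (1.05 and 2.03), kept 2-fold without those wells, at 1.17 and 2.14. Without the single well holding most of its reads, Gulp1 at E13.5 was 0.89, and Cdc42ep2 and Lima1 at E12.5 were 0.90 and 0.92. In E12.5 wells with no glial reference well beside them, Plcd1 was -3.06 and Cdc42ep2 -0.59. Fam111a, Tox and Tle6 joined the named genes only when I17 and A24 were left out.

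Xist, the RNA of the silenced X chromosome, was higher at both ages (1.03 and 1.64, and 0.87 at E12.5 without well C2), and wells with female reads alone were 28.6% of the Sox10-positive wells at each age against 20.3% and 20.5% of the Sox10-low wells. Lower at both ages were Cnr1, the cannabinoid receptor (45.5 CPM in Sox10-low against 9.05 in Sox10-positive wells at E12.5, and 66.9 against 26.6 at E13.5), Slc7a14, a solute carrier (-1.70 and -1.25), and Pcx, pyruvate carboxylase (-1.21 and -1.52, and -0.996 at E12.5 without well O22). Cnr1 was read in 7 of 42 against 21 of 64 wells and in 5 of 28 against 37 of 88.

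The cell cycle lists differed between the ages. The G2/M list had a median log2 fold of 0.34 over 19 genes at E12.5 and -1.63 over 14 at E13.5, where 8 genes were lower and none higher. Without I17 and A24 it was -1.85 with 9 lower, Ube2c being the added gene. The G1/S list had 1 of 20 genes higher at E12.5 (Cdc45) and 6 of 17 lower at E13.5, 7 without the 2 wells. Mki67, a proliferation marker, was 55.2 against 37.5 CPM at E12.5 and 1.94 against 29.1 at E13.5. These are sums: the median well of both groups had 0 CPM of Mki67 at both ages, taken without I17 and A24 at E13.5. The Mki67 sums thus rest on a part of the wells of each group. At E12.5 Aurka, Aurkb, Kif11 and Nusap1 were higher, each mostly through well C2, and their folds without it were -0.01, -1.88, -1.45 and 0.09. Cenpe was lower at E12.5 (-1.33), and -0.36 without the Sox10-low well M15.

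Values that bear on a second cell in the well come from reads of both sexes. Of 751 wells, 2 had at least 5 reads of Xist and at least 5 of the Y-linked genes Ddx3y, Eif2s3y, Kdm5d and Uty, and both were Sox10-positive chromaffin wells. In well C15 of the E12.5 plate (Xist 416 reads, Y-linked 11), Sox10 was 125.5 CPM while Ednrb, Fabp7, Erbb3 and Foxd3 had no read. In well P9 of the E13.5 plate (493 and 13 reads), Sox10 was 65.6 CPM, Ednrb 58.3 and Fabp7 21.9. The Y-linked counts were low beside medians of 67 and 70.5 reads in wells with male reads alone. None of 64 and 88 Sox10-low wells had reads of both sexes, which allows up to 4.69% and 3.41%. The count does not see pairs of cells of 1 sex, and I17 and A24 had male reads alone.

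The number of genes and the markers of other tissues also bear on a second cell. None of 42 Sox10-positive and 2 of 64 Sox10-low wells (3.13%) were in the top 5% of their plate for genes with a read at E12.5. At E13.5, 3 of 28 (10.7%) and 4 of 88 (4.55%) were, with A24 among the 3. The median well of both groups had 0 CPM summed over the markers of melanocytes, sensory neurons, blood, endothelium, immune cells and adrenal cortex at both ages. The highest such sum was 323.96 CPM in a Sox10-positive and 623.9 CPM in a Sox10-low well, both of adrenal cortex markers. Mesenchyme markers had median sums of 38.4 against 37.3 CPM at E12.5, with highest wells of 518.6 and 2044 CPM, and 1.77 against 4.07 CPM at E13.5, with highest wells of 197.2 and 528.9 CPM.

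Values that bear on stray reads come from chromaffin genes in the glial reference wells and from plate position. Chgb had medians of 3.87 and 7.57 CPM in the glial reference wells, with no read in 16 of 62 and 13 of 86. Th had medians of 0 CPM there, with no read in 36 and 53 wells. The glial reference wells were chosen outside the Th and Chgb limits, and whether these reads are stray was not tested. A glial reference well lay next to 32 of 42 Sox10-positive wells (76.2%, 60.5 to 87.9%) and 49 of 64 Sox10-low wells (76.6%, 64.3 to 86.2%) at E12.5, and next to 22 of 28 (78.6%) and 71 of 88 (80.7%) at E13.5. The median number of glial reference wells in the same plate row or column was 6 in both groups at E12.5, and 9 against 8 at E13.5. At E12.5, 26 Sox10-positive wells were in plate rows A to H and 16 in rows I to P, against 27 and 37 Sox10-low wells. At E13.5 it was 13 and 15 against 40 and 48. Within rows A to H, Cartpt, Cdh19 and Stmn4 at E12.5 and Htr3a at E13.5 turned sign, and within rows I to P Fam111a, Gal and Serpine2 at E12.5.

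**Figure D5:**
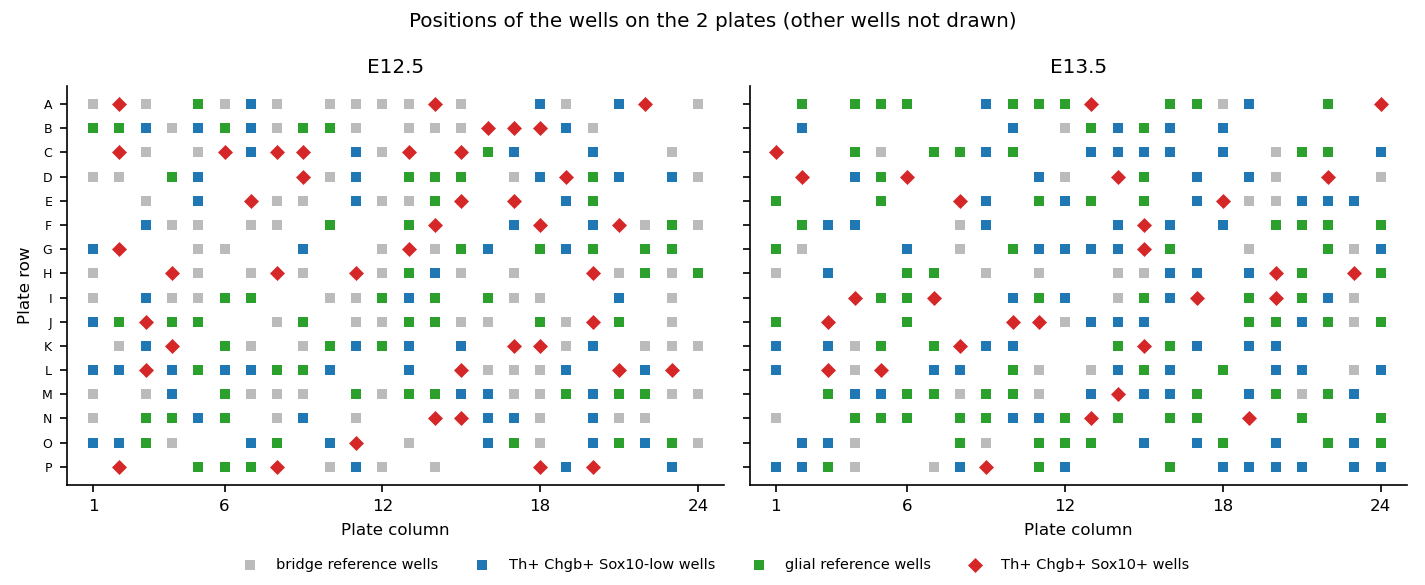
Plate row (y) and column (x) of Sox10-positive (red diamonds), Sox10-low (blue), glial reference (green) and bridge reference wells (grey) on the E12.5 and E13.5 plates; other wells are not drawn. The red wells are spread over both plates, with 26 of 42 (E12.5) and 13 of 28 (E13.5) in rows A to H.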

How the data were processed

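Single Tomato+ cells of the sympatho-adrenal anlage were sequenced by Smart-seq2 at E12.5 and E13.5. For each well, the deposited tables list unnormalized counts of reads for 23420 genes. Per the submitters' processing notes, TopHat2, HTSeq and the mouse build mm9 were used. Versions, annotation and strand setting: not given in the sources used here. Counts were turned into CPM within each well, and wells under 50000 reads (17) were left out. The reads of a group were summed and given as CPM with exact Poisson 95% intervals; folds are log2 with a pseudocount of 1 CPM, and a gene counted as measured when 1 of the groups reached 5 CPM. Each age is 1 plate, so no p-value was computed. Shares have 95% Clopper-Pearson intervals; reads without molecular identifiers are not independent molecules, so intervals and upper limits (3 counts of the total) cover counting error only. Thinning to 100000 reads per well used a fixed seed.

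The wells, the gene lists and the alternatives were chosen with earlier results of these data known. Named genes are, in each list, the 4 highest-ranked per direction that differed 2-fold or more at both ages. Outside the lists they are the 8 highest-ranked, and the higher group had to reach 20 CPM with 30% of its wells holding a read. A set of markers was always given, some of which are not reported here. Other genes named were chosen after their values were seen. In the GENCODE annotation of a later build, 0 genes had exons over those of Sox10. The calculation was checked on simulated data. Python 3.11.15, pandas 2.3.3, numpy 2.4.6 and scipy 1.17.1 were used.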

Additional observations from a re-analysis of the deposited data

Results flagged for a closer look

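Of the gene lists with at least 5 genes measured at each age, 4 stood on opposite sides of 0 at the 2 ages, Sox10-positive over Sox10-low chromaffin wells, and the differences between ages were not tested. The G1/S list had median log2 folds of 0.07 (E12.5) and -0.49 (E13.5), and the G2/M list 0.34 and -1.63. The Notch list had -0.24 and 0.87, and the matrix and adhesion list -0.16 and 1.18. Without wells I17 and A24, the E13.5 medians were -0.68, -1.85, -0.17 and 0.43 in the same order. The adrenal cortex list, with 1 and 2 genes measured, had -0.0029 and 1.17.

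Sox10 was also read in wells that the depth limit left out. Well E4 of the E12.5 plate had 13 Sox10 reads among 24191, with no read of Chgb or Th. Well E4 of the E13.5 plate had 18 among 30454, with 4 reads of Chgb and 1 of Th.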

How the results depend on the processing

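Depth limits the low genes: at the medians of 269114 and 270290 reads per Sox10-positive well, a gene under about 10 CPM rests on a few reads, and single wells carry many folds. A pair of settings was added after seeing the data: leaving out wells I17 and A24, and keeping wells with Chgb from 2000 CPM alone. The files hold no mitochondrial genes, so the scaling meant to leave out Rn45s and such genes left out Rn45s alone. No paired analysis was possible because each age is 1 plate and the labels pair no wells.

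Genes that differed 2-fold made up 6.77% (E12.5) and 12.7% (E13.5) of the measured genes. These shares were 27.2% and 39.8% with wells next to a glial reference well left out (10 and 6 Sox10-positive wells kept), 14.5% and 23.2% in rows A to H (26 and 13 kept), 16.9% and 20.1% in rows I to P (16 and 15 kept), 2.66% and 7.19% with a pseudocount of 5 CPM, and 2.4% and 6.69% with a 20 CPM minimum. Higher Schwann lineage genes, 3 at E12.5, were 6 without those neighbours, 5 in rows I to P, 0 with 5 CPM and 1 with the 20 CPM minimum. At E13.5 the 19 became 12 with that minimum, 5 without I17 and A24 and 11 with Chgb from 2000 CPM. Higher bridge genes, 2 at E12.5, were 6 without neighbours and 1 in rows I to P or with the 20 CPM minimum, and the 3 at E13.5 were 5 in rows A to H and 6 in rows I to P. Lower chromaffin genes, 4 at each age, were at E12.5 1 without neighbours or with Chgb from 2000 CPM, and 2 in rows A to H or I to P, with 5 CPM or with the 20 CPM minimum. At E13.5 they were 13 without neighbours, 2 in rows A to H, 7 in rows I to P and 2 with that minimum.

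Counting the reported setting, Apoe stayed 2-fold higher in 15 of 17 settings (E12.5) and 18 of 18 (E13.5), and Cnr1 lower in 17 of 17 and 16 of 18. Signs of log2 folds turned as follows. Without neighbours at E12.5, Cdc42ep2 was -0.59, Plcd1 -3.06, Postn -0.32, Slc6a2 0.59 and Stmn4 0.61, and at E13.5 Fam111a was -2.05. In rows A to H, Cartpt was 1.06, Cdh19 -1.92 and Stmn4 0.34 at E12.5, and Htr3a -1.62 at E13.5. For rows I to P, Fam111a was -0.87, Gal 0.48 and Serpine2 -0.80, all at E12.5. With doubled Th and Chgb limits Cartpt was 0.21 at E12.5. With Chgb from 2000 CPM, Cartpt was 0.79 and Serpine2 -0.29 at E12.5, and Notch1 -0.39 at E13.5. Without I17 and A24, Itga4 was -1.91, Notch1 -1.67, Postn -0.037 and Serpine2 -0.71 at E13.5. The settings by neighbour and plate row keep fewer wells, and the cause of the other turns was not tested.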
